A study of Mus musculus with 75 samples.

Results

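The expression of 10 genes of hepatic stellate cells, of the contractile myofibroblasts they can become, and of matrix remodelling was followed in mouse liver. They are Acta2, Des, Pdgfrb, Lrat, Reln, Tagln, Timp1, Lox, Loxl1 and Tgfb1. They were taken by gene symbol, and all 10 were found among the 55536 genes counted. The livers came from wild-type C57Bl/6 mice, labelled male, and each library was total liver RNA. Exposed mice were born to dams given tributyltin (TBT), an organotin, in drinking water until weaning, at 3.07 µM or 0.5 mg daily per kg of body weight. Control mice were born to dams given vehicle. Offspring were sampled at 3 weeks (7 vehicle and 8 TBT samples), at 5 months (8 vehicle samples, 16 of TBT mice classed as low-risk and 10 classed as high-risk) and at 10 months (6 vehicle samples, 5 of low-risk TBT mice, and 5 of uninvolved liver and 7 of tumors from high-risk TBT mice). Low-risk and high-risk refer to liver tumors. Uninvolved samples are liver without tumor from high-risk mice of 10 months, and mouse numbers tie 6 of the 7 tumors to them. How the 5-month mice were sorted into risk classes is not stated in the labels, so the classes may rest on gene expression. Exposure reached the pups through the dam, and nothing in the labels says which pups shared a litter.

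Stellate cells lie beside the liver sinusoids and, at rest, store vitamin A as retinyl esters. After injury they can lose these stores, divide in response to platelet-derived growth factor, take on contractile proteins under transforming growth factor beta and lay down collagen, as can fibroblasts of the portal tracts. Lysyl oxidases cross-link the collagen and elastin so formed, and tissue inhibitors of metalloproteinases slow its removal.

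Libraries held 2.83 to 45.4 M counts, and 5-month libraries came from 2 sequencing batches, of which the second held 7 of 10 high-risk, 10 of 16 low-risk and 1 of 8 vehicle samples. By name, the deposited counts were adjusted for batch by ComBat-seq, so they may differ from the read counts. Levels are given as normalised CPM, the usual per-library scaling of counts, adjusted by the trimmed mean of M-values (TMM), a composition factor. A change is called when its p-value, adjusted by the Benjamini-Hochberg method over all genes tested, is under 0.05, and ± after a log2 fold change is its standard error. Of 75 libraries, 6 stood apart technically, with over 10% mitochondrial counts, over 35000 genes detected or under 5 M counts: 5-month high-risk 10 and 15, low-risk 16 and vehicle 9, 1 of the 2 libraries of 3-week vehicle 3, and a 10-month vehicle library labelled as a tumor, which entered no comparison. Libraries of uninvolved mice 3 and 6 differed by far less than any other pair of their group and were counted as 1 sample. Without the libraries that stood apart, the counts of members called in high-risk liver of 5 months were 8 against low-risk liver and 5 against vehicle, as with them, though Timp1 (2.28, adjusted p 0.0237) then took the place of Acta2 (0.94, adjusted p 0.0696) in the second. Within a group, samples are taken as separate mice by the numbers in their titles, and p-values measure the spread between these samples. The test of tumors against uninvolved liver treats samples of the same mouse number as separate, and a fit that pairs them is given with the alternatives. The hepatocyte markers Alb, Apoa1, Ttr and 7 others summed to between 37400 and 201000 CPM in every sample. In bulk liver, fewer cells of a type and less RNA per cell cannot be told apart, which holds for every difference below. Tagln shares 62.4% of its exon length with the antisense gene Gm48529 and 5.4% with Pcsk7 on the opposite strand. The kit was stranded but the strand setting of the counting is not given in the sources used here, so values of Tagln are uncertain.

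The promoters of 3 members stand for the directions seen among those matched to the RefSeq promoter table (GRCm38.p6), which held 6 of the 10: Tgfb1 and Timp1 rose and Lrat fell in high-risk liver, as described below. Each line gives the 250 bases before the RefSeq start, 5′ to 3′ on the strand of the gene, with GC boxes (GGGCGG on either strand) in capitals.
Tgfb1: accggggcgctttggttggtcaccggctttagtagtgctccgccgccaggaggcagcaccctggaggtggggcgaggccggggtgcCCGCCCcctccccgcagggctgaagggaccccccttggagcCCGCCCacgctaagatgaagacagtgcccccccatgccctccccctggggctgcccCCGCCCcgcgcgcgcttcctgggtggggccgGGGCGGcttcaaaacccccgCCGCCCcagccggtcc
Timp1: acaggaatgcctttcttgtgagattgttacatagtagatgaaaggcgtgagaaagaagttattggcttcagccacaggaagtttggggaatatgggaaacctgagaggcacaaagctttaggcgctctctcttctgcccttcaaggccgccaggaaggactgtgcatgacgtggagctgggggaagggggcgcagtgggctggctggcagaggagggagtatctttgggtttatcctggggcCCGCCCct
Lrat: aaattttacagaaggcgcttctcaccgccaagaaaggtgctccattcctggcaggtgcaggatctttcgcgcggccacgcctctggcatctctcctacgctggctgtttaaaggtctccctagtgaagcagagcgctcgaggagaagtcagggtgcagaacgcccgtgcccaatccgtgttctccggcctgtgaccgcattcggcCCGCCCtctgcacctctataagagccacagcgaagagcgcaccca
They lie at chr7:25686752-25687001 (Tgfb1, plus strand), chrX:20869916-20870165 (Timp1, plus strand) and chr3:82903975-82904224 (Lrat, minus strand), directly upstream of the genes as annotated in GENCODE M21. The Tgfb1 stretch held 5 GC boxes and was 75.2% G and C. Timp1 held 1, at bases -8 to -3 from the start, in a stretch of 54.4% G and C, and Lrat held 1, at bases -45 to -40, in a stretch of 59.2%. Of 32817 mouse promoters of this length in the table, 32.7% held a GC box, and among the matched members Des and Reln held it too, while the Acta2 window did not. A match describes letters and is no sign of binding.

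Per kilobase of exon, which allows genes to be compared with each other, Reln was the most abundant member in 10-month vehicle liver, at 6.63 ± 1.21 CPM per kb (SD, n = 6), followed by Lrat at 4.76 ± 0.794. Pdgfrb (2.3 ± 0.466) and Acta2 (2.24 ± 0.82) stood next, and Timp1 (0.0517 ± 0.0185) and Lox (0.0692 ± 0.0491) were the lowest. In uninvolved liver of the same age Pdgfrb, at 9.02 ± 2.1 CPM per kb (SD, n = 5), stood above Reln at 7.77 ± 1.29, and Loxl1 at 4.27 ± 1.6 stood above Lrat at 3.54 ± 1.13. Within each of these pairs of genes the means differed by less than the larger SD. Lrat encodes lecithin retinol acyltransferase, the enzyme that makes retinyl esters, and Reln encodes reelin. The 16 stellate cell markers outside the 10 genes were each detected in all 9 groups. Beside Tgfb1, Timp1 and Lrat, the genes lie at chr19:34241090-34255590 (Acta2), chr1:75360329-75368579 (Des), chr5:21884454-22344702 (Reln), chr9:45929619-45936058 (Tagln), chr9:58287738-58313186 (Loxl1) and on chromosome 18 (Pdgfrb and Lox).

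**Figure D1:**
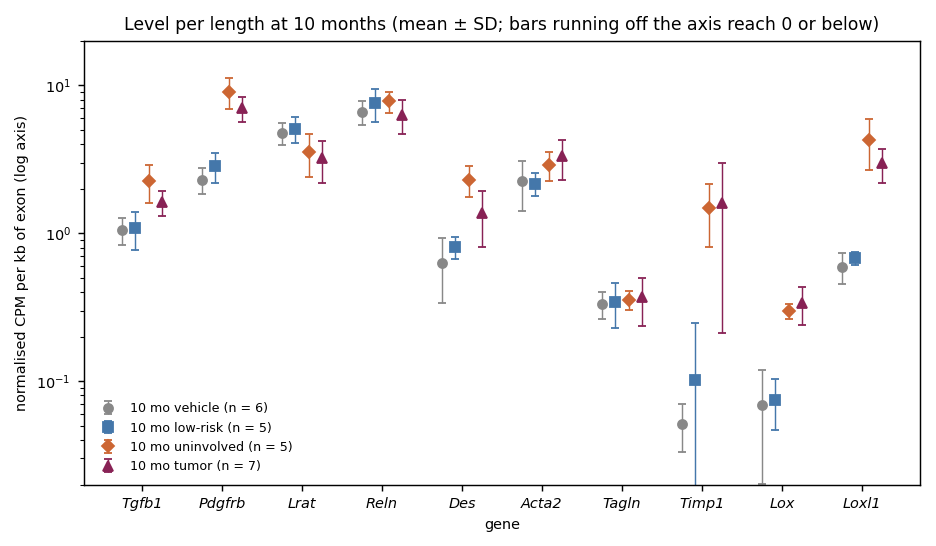
Mean normalised CPM per kb of exon (log axis) with SD for the 10 genes in the 4 groups of 10 months, 1 symbol per group. Vehicle and low-risk symbols lie close together for every gene except Timp1, while uninvolved and tumor symbols lie above them for Tgfb1, Pdgfrb, Des, Timp1, Lox and Loxl1 and below them for Lrat.

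**Figure D2:**
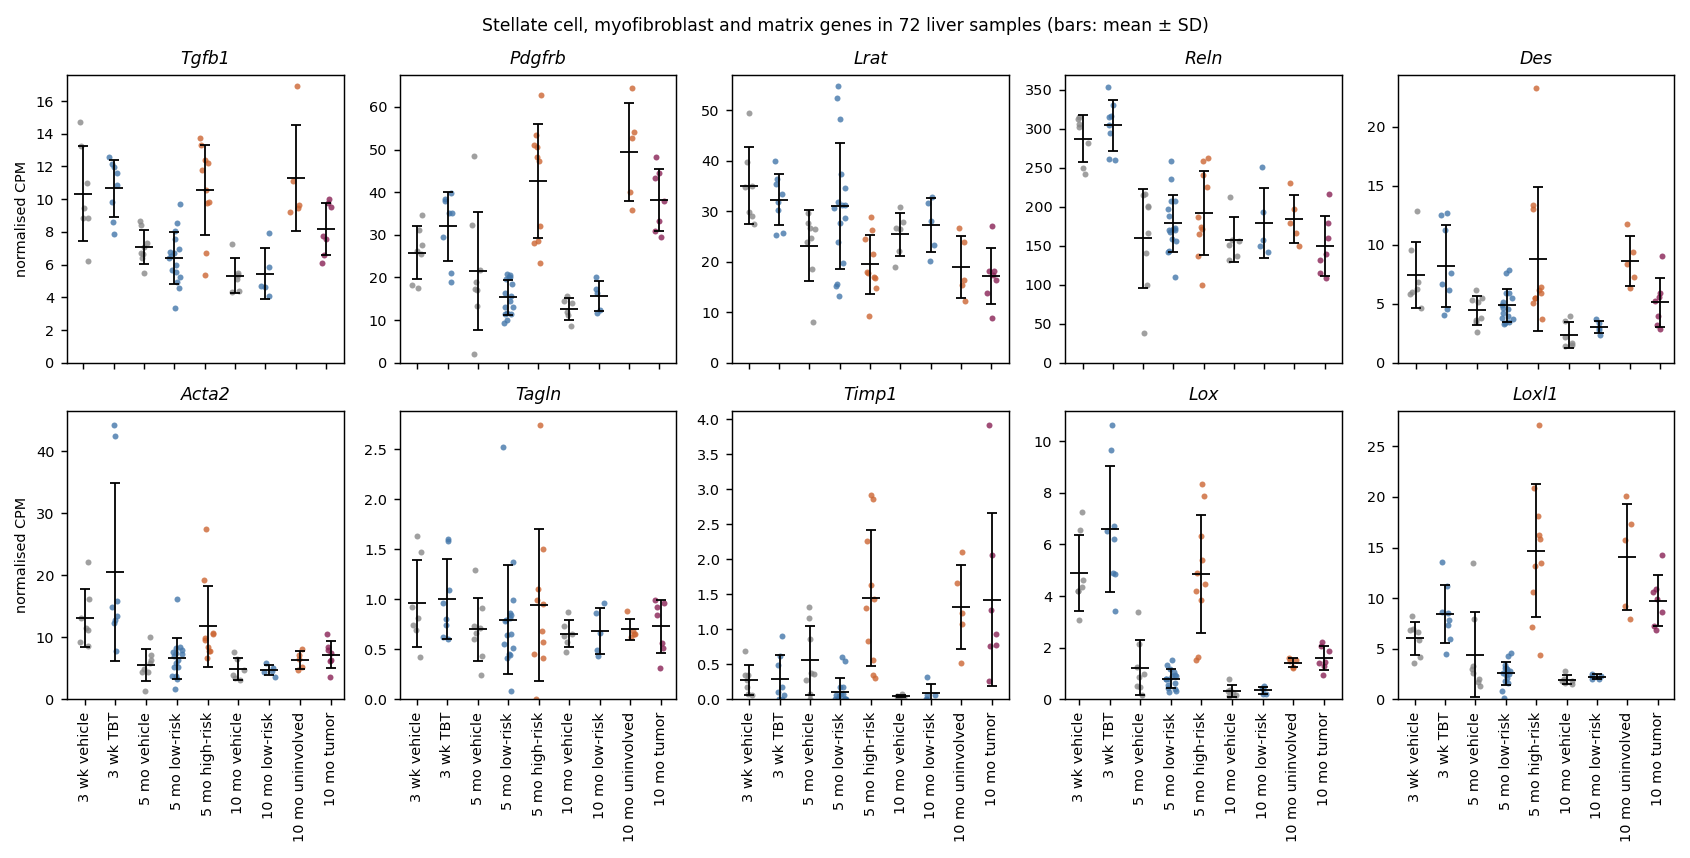
Normalised CPM of each gene in 72 samples (points) of 9 groups, with mean and SD (bars). The means of high-risk samples of 5 months and of uninvolved and tumor samples of 10 months stand above those of the other groups of their age for Pdgfrb, Loxl1 and Timp1, with single samples that overlap, while Reln is highest at 3 weeks.

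At weaning age no member was called between TBT and vehicle liver. Loxl1, a lysyl oxidase needed for elastic fibres, ran from 4.46 to 13.6 CPM (median 8.18) in 8 TBT livers and from 3.63 to 8.27 (median 6.63) in 7 vehicles, and the groups overlapped. Its log2 fold change was 0.48 ± 0.22 (unadjusted p 0.0388, adjusted p 0.999 in edgeR's quasi-likelihood test). Acta2, which encodes smooth muscle alpha-actin, ran from 7.87 to 44.3 CPM (median 14.2) after TBT and from 8.63 to 22.2 (median 11.5) in vehicles, a log2 fold change of 0.65 with a 2-SE interval from -0.11 to 1.41. Its highest TBT values were 44.3 CPM in the library labelled TBT 4 and 42.6 CPM in TBT 2. The library labelled TBT 4 had 348 CPM of Xist, a transcript of female cells, against its label. Low-risk 24 of 5 months, also labelled male, had 84.6 CPM of Xist and stayed in the comparisons of its group. Of 9 members tested (Timp1 fell below the filter on low counts), 0 were called by edgeR, 0 by DESeq2 and 0 without TBT 4. Of these members 1 had an unadjusted p under 0.05, where 3.37% of all genes did (0% of 14050 genes were called).

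At 5 months, high-risk liver stood apart from low-risk liver in 8 of the 10 genes, as it did in 38.9% of the 14773 genes tested. Timp1, Lox, Loxl1, Pdgfrb, Des, Acta2 and Tgfb1 rose, where 20.3% of all genes rose, and Lrat fell, where 18.5% fell. Reln and Tagln were not called. The median log2 fold change was 0.87 over the members and -0.01 over all genes. When counts were scaled to library totals alone, the median over all genes moved by 0.31 and the share of higher genes among those called went from 52.3% to 86.1%. The same 7 members rose under that scaling, Reln rose too (0.44, adjusted p 0.0179) and Lrat was not called (-0.35, adjusted p 0.102). Over all genes 6187 were then higher and 999 lower, against 3005 and 2740 with TMM.

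Tgfb1, the ligand that drives the contractile and collagen programme of stellate cells, ran from 5.35 to 13.8 CPM (median 11.2) in 10 high-risk livers, from 3.33 to 9.71 (median 6.47) in 16 low-risk livers and from 5.5 to 8.66 (median 6.91) in 8 vehicles. In 8 high-risk livers Tgfb1 exceeded the highest low-risk value. The log2 fold change of high-risk against low-risk was 0.75 ± 0.16 (adjusted p 0.000301). Pdgfrb, the receptor through which stellate cells and pericytes answer platelet-derived growth factor, ran from 23.3 to 62.8 CPM (median 47.8) in high-risk and from 9.24 to 20.9 (median 15.1) in low-risk livers. These groups did not overlap, and the log2 fold change was 1.49 ± 0.21 (adjusted p 1.09e-06). Vehicles ran from 2.15 to 48.5 CPM (median 18.2), with mouse 4 at 48.5 and mouse 6 at 32.4 inside the high-risk range and mouse 9, whose library held only 2.83 M counts, at the bottom.

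Among markers of the resting stellate cell, Lrat ran from 9.28 to 28.9 CPM (median 17.9) in high-risk livers and from 13.2 to 54.7 (median 30.9) in low-risk livers, a log2 fold change of -0.65 ± 0.19 (adjusted p 0.00743). The ranges overlapped and 1 high-risk liver lay below every low-risk liver. Vehicles ran from 7.96 to 29.6 CPM (median 25.6), and high-risk against vehicle was not called for Lrat (-0.27, 2-SE interval -0.75 to 0.22). Reln, an extracellular glycoprotein that marks stellate cells in liver, ran from 99.8 to 263 CPM (median 180.4) in high-risk and from 109.7 to 259 (median 171.0) in low-risk livers, and its interval of the log2 difference was -0.19 to 0.41. The Reln values of the groups overlapped almost fully.

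Des encodes desmin, an intermediate filament of stellate cells that is also abundant in muscle. It ran from 3.66 to 23.3 CPM (median 6.04) in high-risk and from 3.25 to 7.84 (median 4.6) in low-risk livers (log2 fold change 0.90 ± 0.21, adjusted p 0.000808). The highest value belonged to high-risk mouse 1, in which 9 other skeletal muscle markers summed to 170 CPM against 0.377 to 5.57 in the other high-risk livers. Without that liver the log2 fold change was 0.55 ± 0.16 (adjusted p 0.00492). The sum was also high in 3-week TBT 7 (244), 3-week vehicle 1 (169) and tumor 5 (134). Each had the highest Des of its group, at 12.7, 12.9 and 9.05 CPM, and the part of muscle in these values was not tested.

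Of the contractile genes, Acta2 ran from 6.69 to 27.4 CPM (median 9.79) in high-risk and from 1.74 to 16.2 (median 6.67) in low-risk livers, a log2 fold change of 0.83 ± 0.25 (adjusted p 0.00695). High-risk mice 1 and 17 lay above every low-risk liver. Without mouse 1 the log2 fold change was 0.62 ± 0.23 (adjusted p 0.0292). Tagln, which encodes the actin-binding protein transgelin, stood at 0.944 ± 0.76 CPM (SD, n = 10) in high-risk and 0.797 ± 0.545 (SD, n = 16) in low-risk livers, less apart than either SD. Its highest values, 2.75 CPM in high-risk mouse 4 and 2.53 CPM in low-risk mouse 5, lay in different groups.

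Timp1, an inhibitor of matrix metalloproteinases and induced in activated stellate cells, had the largest fold change of the members. It ran from 0.306 to 2.91 CPM (median 1.37) in high-risk livers, while 8 of 16 low-risk livers had 0 counts and the highest low-risk value was 0.605 CPM. In 7 high-risk livers Timp1 exceeded the highest low-risk value, and the log2 fold change was 3.87 ± 0.60 (adjusted p 5.32e-06). These are 290 deposited counts against 25 in all, a ratio of 14.9 after scaling. Its 95% interval of 9.87 to 23.4 covers counting error only, and only if these were read counts. Lox, the founding lysyl oxidase, ran from 1.53 to 8.36 CPM (median 4.68) in high-risk and from 0.295 to 1.52 (median 0.8) in low-risk livers, without overlap (2.63 ± 0.36, adjusted p 7.46e-07). Loxl1 ran from 4.36 to 27.1 CPM (median 14.7) in high-risk and from 0.133 to 4.57 (median 2.7) in low-risk livers, and only high-risk mouse 22 lay within the low-risk range (2.53 ± 0.33, adjusted p 6.12e-07). High-risk mice 1 and 22 had the lowest Timp1, Lox and Loxl1 of their group, and also its lowest sums of portal fibroblast markers (104 and 68.8 CPM) and of bile duct markers (85.7 and 46.2 CPM). The part of these cells was not tested.

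Within batch 1 (3 high-risk and 6 low-risk samples) Pdgfrb, Lox and Loxl1 were called, and within batch 2 (7 and 10 samples) Des, Pdgfrb, Lox, Loxl1 and Tgfb1 were called. Log2 fold changes in the 2 batches were 1.92 and 1.28 for Pdgfrb, 2.96 and 2.44 for Lox, 3.47 and 2.05 for Loxl1, 0.84 and 0.70 for Tgfb1, 0.89 and 0.91 for Des, 0.71 and 0.89 for Acta2 and -0.66 and -0.63 for Lrat. Timp1 had 3.51 in batch 1 (adjusted p 0.0637) and fell below the filter on low counts in batch 2. With any 1 sample left out in turn, 8 members were called.

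**Figure D3:**
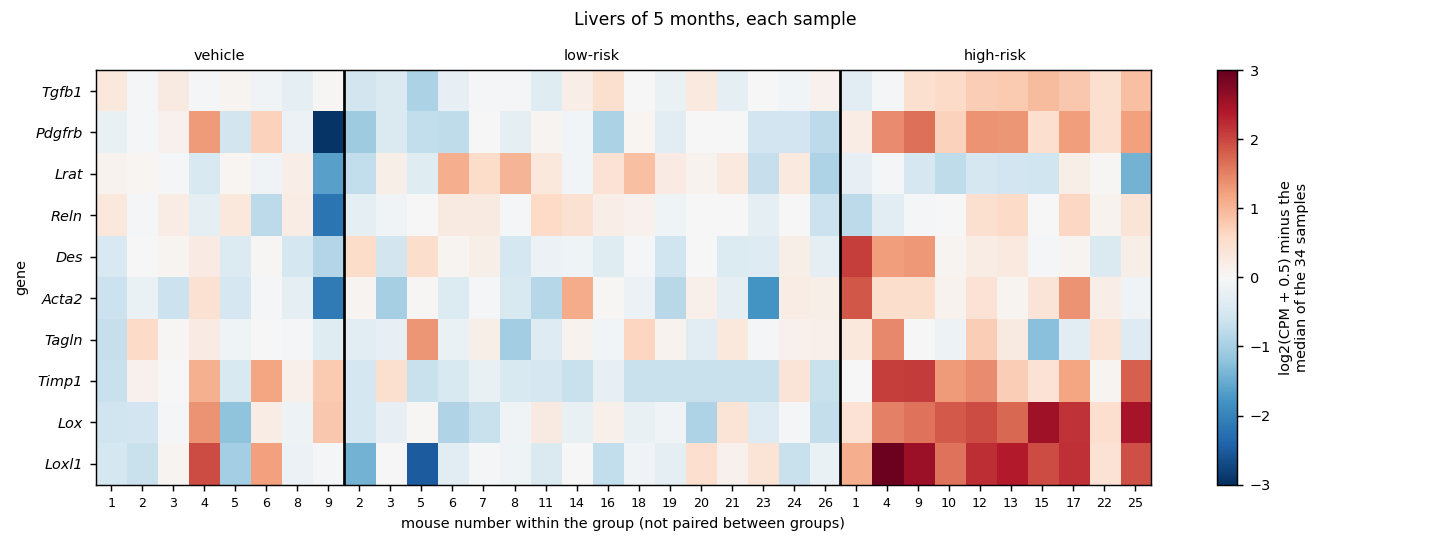
Each column is a 5-month liver and each row a gene; colour gives log2(CPM + 0.5) minus the gene's median over the 34 samples, red for higher and blue for lower. Red fills the high-risk columns for Pdgfrb, Timp1, Lox and Loxl1, faintly in mice 1 and 22, and vehicles 4 and 6 show the same genes in red.

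Against the 8 vehicles, which these comparisons share, 5 members rose in high-risk liver: Lox (1.97 ± 0.48, adjusted p 0.00561), Loxl1 (1.71 ± 0.43, adjusted p 0.00762), Des (1.16 ± 0.28, adjusted p 0.00508), Acta2 (0.98 ± 0.33, adjusted p 0.0377) and Pdgfrb (0.95 ± 0.27, adjusted p 0.0162). No member fell. Of all genes 15.8% were called, 8.47% higher and 7.38% lower. Timp1, at 0.556 ± 0.495 CPM (SD, n = 8) in vehicles, was not called (1.91 ± 0.72, adjusted p 0.0654), nor was Tgfb1 (0.47 ± 0.21, adjusted p 0.129). Vehicle mouse 4 had 3.38 CPM of Lox and 13.4 CPM of Loxl1 and mouse 6 had 7.92 CPM of Loxl1 and 1.32 CPM of Timp1, and each of these values lay above every low-risk liver. Bile duct markers also stood high in vehicle mouse 6 (304 CPM) and mouse 4 (134 CPM) against 42.4 to 97.8 CPM in the other vehicles. Portal fibroblast markers summed to 275 and 160 CPM in mice 6 and 4 and to 39.4 to 131 CPM in the others. The part of these cells in the result was not tested.

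Some of these calls rested on single samples. Leaving out vehicle 8, the vehicle of batch 2, left 3 members called, with Acta2 at an adjusted p of 0.0875 and Pdgfrb at 0.0582. Acta2 was also not called without high-risk 1, 15 or 17 or vehicle 1, 2, 3 or 5, with adjusted p-values from 0.0546 to 0.0713. Timp1 was called without vehicle 9 (adjusted p 0.0249), vehicle 6 (0.0473) or high-risk 15 (0.0477), and Tgfb1 without vehicle 9 (0.0233). Within batch 1 (3 high-risk livers and 7 vehicles) no member was called. The log2 fold changes there were 2.0 for Lox, 2.06 for Loxl1, 1.12 for Des, 1.11 for Pdgfrb and 0.86 for Acta2, with adjusted p-values from 0.127 to 0.259. Batch 2 held 1 vehicle, too few for a value. With library totals as the scaling 8 members were called, the median of all genes moved by 0.37 and the share of higher genes among those called went from 53.4% to 93.5%. Over all genes 4627 were then higher and 320 lower, against 1251 and 1090 with TMM.

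Between low-risk and vehicle liver of 5 months edgeR and DESeq2 called 0 members, and edgeR called 0% of 14773 genes. An unadjusted p under 0.05 was found for 2 members, where 6.32% of genes had one. These were Timp1, with a log2 fold change of -1.96 (interval -3.34 to -0.57), and Pdgfrb, with -0.54 (interval -1.05 to -0.03). Lox (-0.65, interval -1.56 to 0.25) and Loxl1 (-0.82, interval -1.67 to 0.02) had intervals that reached 0. Vehicles 4 and 6 were the highest vehicles for Pdgfrb, Loxl1 and Timp1.

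**Figure D4:**
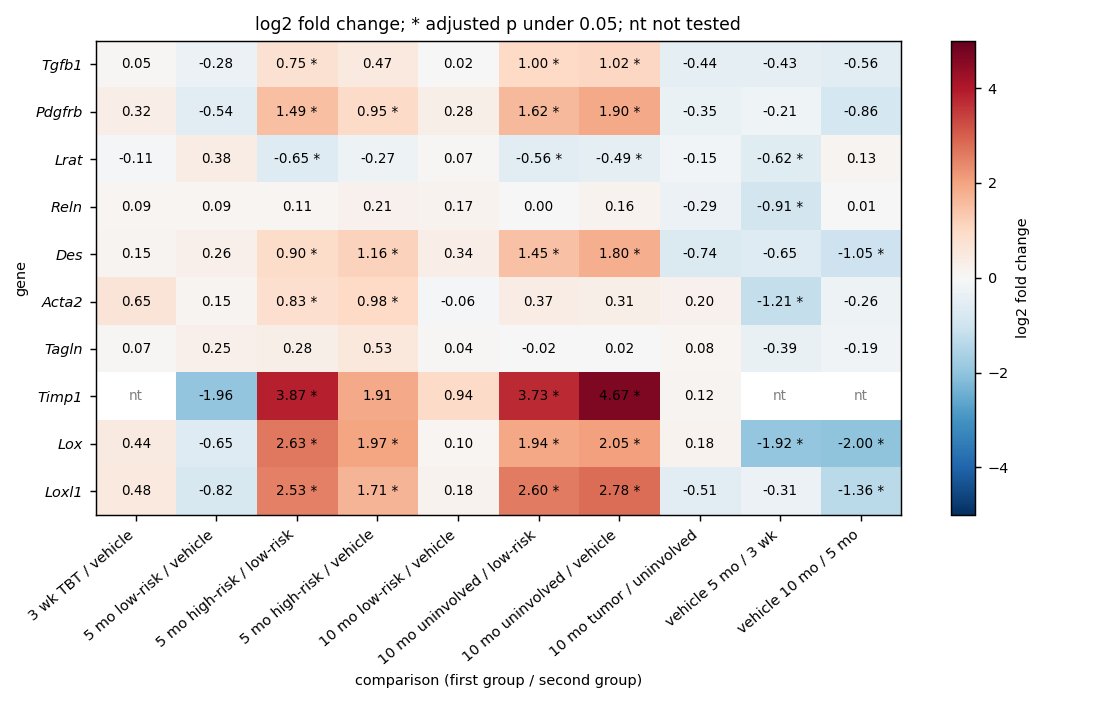
Log2 fold change of each gene (rows) in 10 comparisons (columns), with an asterisk where the adjusted p was under 0.05. Timp1, Lox, Loxl1, Pdgfrb and Des are red in the high-risk columns of both ages, Lrat is pale blue there, and the columns of low-risk against vehicle and of TBT at 3 weeks carry no asterisk.

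At 10 months, uninvolved liver of high-risk mice stood apart from low-risk liver in 7 members, where 52.4% of 16338 genes were called. Timp1, Loxl1, Lox, Pdgfrb, Des and Tgfb1 rose (27.7% of all genes rose). Lrat fell (24.7% of all genes fell), and Acta2, Reln and Tagln were not called. Against vehicles the same 6 rose and Lrat fell, where 57.7% of all genes were called, 31.2% higher and 26.5% lower, and these 2 comparisons share the uninvolved samples. The median log2 fold change was 1.23 over the members against low-risk liver and 1.41 against vehicles, and 0.05 and 0.06 over all genes. Uninvolved libraries were deeper than the others of 10 months (34.8 to 44.6 M counts against 22.5 to 33.5 M), with more genes detected and 4.2 to 5.85% of counts from mitochondrial genes against 2.64 to 3.83%. The part of these in the results was not tested.

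Tgfb1 stood at 9.21, 9.48, 9.66, 11.1 and 16.9 CPM in the 5 uninvolved livers and at 4.09, 4.65, 4.68, 5.85 and 7.96 CPM in the 5 low-risk livers. Vehicles ran from 4.3 to 7.29 CPM (median 5.22), so every uninvolved liver lay above both other groups. The log2 fold changes were 1.0 ± 0.19 against low-risk (adjusted p 0.000469) and 1.02 ± 0.19 against vehicle (adjusted p 0.000192). For the growth factor receptor Pdgfrb, uninvolved livers had 35.9, 40.01, 52.6, 54.2 and 64.5 CPM, low-risk livers 11.7, 12.4, 16.3, 17.4 and 20.1 CPM, and vehicles 8.58 to 15.6 CPM (median 12.9). The lowest uninvolved liver lay above the highest vehicle or low-risk liver. Log2 fold changes were 1.62 ± 0.18 (adjusted p 2.94e-06) and 1.90 ± 0.17 (adjusted p 2.02e-07).

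Lrat was at 12.2, 15.4, 16.4, 23.8 and 26.7 CPM in uninvolved livers and at 20.2, 23.3, 28.0, 31.6 and 32.7 CPM in low-risk livers, with 3 of 5 uninvolved livers below every low-risk liver. Vehicles ran from 18.9 to 30.7 CPM (median 26.5). The log2 fold change was -0.56 ± 0.19 against low-risk (adjusted p 0.0215) and -0.49 ± 0.19 against vehicle (adjusted p 0.032). Both calls were narrow. The first was lost without low-risk 9 or 10 or without uninvolved 7, 12 or the pooled sample 3 and 6 (adjusted p 0.0563 to 0.0627), and the second without vehicle 1, 4, 6 or 7 or the same 3 uninvolved samples (adjusted p 0.0503 to 0.089). With library totals as the scaling they were -0.30 (adjusted p 0.266) and -0.15 (adjusted p 0.557). Under that scaling the median of all genes moved by 0.25 and 0.32, and the share of higher genes among those called went from 52.8% to 78.8% and from 54% to 82.6%.

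Reln stood at 149.9, 166, 179, 197 and 230.0 CPM in uninvolved and at 142, 149, 157, 194 and 251.1 CPM in low-risk livers, values that interleaved, and the interval of the log2 difference was -0.32 to 0.31. Against vehicle Reln was called only with library totals as the scaling (0.48, adjusted p 0.00963). Des was at 6.3, 7.25, 8.4, 9.42 and 11.7 CPM in uninvolved and at 2.37, 2.74, 2.96, 3.39 and 3.71 CPM in low-risk livers, with vehicles from 1.38 to 3.98 CPM (median 1.91). Every uninvolved value exceeded every vehicle and low-risk value for Des, and the log2 fold changes were 1.45 ± 0.26 (adjusted p 0.000207) and 1.80 ± 0.25 (adjusted p 1.3e-05). In these uninvolved livers the 9 other skeletal muscle markers summed to 0.796 to 0.995 CPM, and Ckm, Acta1, Myh4 and Mylpf were each at or under 0.455 CPM.

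Neither contractile gene was called in uninvolved liver. Acta2 was at 4.77, 5.21, 6.45, 7.09 and 8.21 CPM in uninvolved livers, at 3.66, 4.42, 4.64, 5.09 and 5.93 CPM in low-risk livers and from 3.19 to 7.68 CPM (median 4.32) in vehicles. The groups overlapped, and the intervals of the log2 difference were -0.07 to 0.81 and -0.11 to 0.72. With library totals as the scaling Acta2 was called in both comparisons, at 0.61 (adjusted p 0.0302) and 0.62 (adjusted p 0.019). Tagln was at 0.627 to 0.881 CPM in uninvolved, 0.437 to 0.962 in low-risk and 0.472 to 0.878 in vehicle livers, and its intervals were -0.54 to 0.49 and -0.48 to 0.52.

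Timp1 was near 0 in vehicle and low-risk liver of 10 months. Vehicles held 1 or 2 counts each, 7 in all, and low-risk livers had 0, 0, 0.0641, 0.0693 and 0.317 CPM. Uninvolved livers had 0.521, 1.07, 1.23, 1.66 and 2.1 CPM, each above every vehicle and low-risk liver. From the summed counts, uninvolved liver held 28.2 times the vehicle level (95% interval 13.5 to 70.7) and 13.8 times the low-risk level (7.97 to 26.2). These intervals cover counting error only, and only if the deposited counts were read counts. Low-risk mouse 2 held 9 of the 13 low-risk counts. The fitted log2 fold changes were 4.67 ± 0.61 (adjusted p 8e-06) and 3.73 ± 0.58 (adjusted p 6.9e-05), and without low-risk mouse 2 the second was 5.01 ± 0.60 (adjusted p 1.17e-05).

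Lox was at 1.24, 1.25, 1.48, 1.54 and 1.62 CPM in uninvolved livers, at 0.211, 0.224, 0.398, 0.429 and 0.52 CPM in low-risk livers and from 0.145 to 0.776 CPM (median 0.275) in vehicles. No uninvolved value fell within the vehicle or low-risk range. Loxl1 was at 7.92, 9.25, 15.8, 17.4 and 20.1 CPM in uninvolved and at 1.99, 2.01, 2.31, 2.34 and 2.54 CPM in low-risk livers, with vehicles from 1.57 to 2.85 CPM (median 1.84). Log2 fold changes against low-risk and vehicle were 1.94 ± 0.37 (adjusted p 0.000388) and 2.05 ± 0.35 (adjusted p 0.000116) for Lox and 2.60 ± 0.23 (adjusted p 2.52e-07) and 2.78 ± 0.22 (adjusted p 3.91e-08) for Loxl1. Low-risk livers were close to each other in Loxl1, at 2.24 ± 0.234 CPM (SD, n = 5). When the vehicle library labelled as a tumor was counted as a seventh vehicle, Lox (1.05, adjusted p 0.157) and Tgfb1 (0.66, adjusted p 0.0776) were not called against vehicle, and 5 members were.

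Between low-risk and vehicle liver of 10 months edgeR and DESeq2 called 0 members, 0 had an unadjusted p under 0.05 where 4.21% of genes did, and edgeR called 0% of 16338 genes. The intervals of the log2 difference ran from -0.06 to 0.63 for Pdgfrb, from -0.28 to 0.64 for Loxl1 and from -0.68 to 0.89 for Lox.

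Between tumors and uninvolved liver no member was called by edgeR, where 18.1% of 16362 genes were (7.55% higher and 10.5% lower), and 4 had an unadjusted p under 0.05, where 34.9% of genes did: Des, Tgfb1, Pdgfrb and Loxl1, all lower in tumors. Des ran from 2.81 to 9.05 CPM (median 5.21) in 7 tumors, with 6 of them below every uninvolved liver, and its log2 fold change was -0.74 ± 0.26 (adjusted p 0.0603). DESeq2 called Des alone (adjusted p 0.0328), and without tumor 5, which carried 134 CPM of skeletal muscle markers, edgeR called it too (-0.93, adjusted p 0.0227). Tgfb1 ran from 6.12 to 9.98 CPM (median 7.75) and Pdgfrb from 29.4 to 48.1 CPM (median 37.9) in tumors, with log2 fold changes of -0.44 ± 0.17 (adjusted p 0.0758) and -0.35 ± 0.15 (adjusted p 0.117). Timp1, from 0.257 to 3.91 CPM (median 0.927), and Lox, from 0.96 to 2.23 CPM (median 1.44), spread over and beyond the uninvolved range, with intervals of -0.90 to 1.14 and -0.27 to 0.63.

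Against vehicles, tumors had 6 members higher and Lrat lower (45.9% of 15293 genes were called, 24.8% higher and 21% lower), and against low-risk liver 7 higher and Lrat lower (36.7% of 15557 genes, 21.3% higher and 15.3% lower). These share the tumor samples. Log2 fold changes against vehicle were 4.80 ± 0.66 for Timp1, 2.30 ± 0.19 for Loxl1, 2.27 ± 0.35 for Lox, 1.58 ± 0.15 for Pdgfrb, 1.09 ± 0.31 for Des, 0.60 ± 0.15 for Tgfb1 and -0.59 ± 0.19 for Lrat. Against low-risk liver they were 3.89 ± 0.81, 2.14 ± 0.18, 2.17 ± 0.30, 1.31 ± 0.17, 0.76 ± 0.27, 0.60 ± 0.18 and -0.65 ± 0.21, and Acta2 was the further gene called (0.62 ± 0.21, adjusted p 0.0341). Pdgfrb, Lox and Loxl1 did not overlap between tumors and either vehicle or low-risk liver. Without low-risk mouse 2 the log2 fold change of Timp1 against low-risk liver was 5.15 ± 0.92 (adjusted p 0.00186). Several calls against low-risk liver rested on single samples: 4 members were called without low-risk 9 and 5 without low-risk 8. Acta2 was lost without low-risk 2, 4, 8 or 9 or tumor 5, 6, 11 or 12 (adjusted p 0.0508 to 0.0863), Des without low-risk 2, 4, 8 or 9 or tumor 3, 5 or 6 (0.0543 to 0.0945), Tgfb1 without low-risk 8 (0.0517) or 9 (0.0535), and Lrat without low-risk 9 (0.0665) or 10 (0.0619). With library totals as the scaling the median of all genes moved by 0.30 against vehicle and 0.21 against low-risk liver, the share of higher genes among those called went from 54.2% to 89.5% and from 58.2% to 87.5%, and Lrat was not called (-0.30, adjusted p 0.215, and -0.44, adjusted p 0.112).

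In vehicle liver, several members fell with age. From 3 weeks to 5 months vehicle livers lost Lox (-1.92 ± 0.50, adjusted p 0.00696), Acta2 (-1.21 ± 0.26, adjusted p 0.00145), Reln (-0.91 ± 0.18, adjusted p 0.000819) and Lrat (-0.62 ± 0.14, adjusted p 0.00198), 4 of 9 members tested, where 24.2% of 14962 genes were called and 12.3% fell. None rose, where 11.9% of genes did. Reln went from 242 to 315 CPM (median 303) to 37.4 to 216 CPM (median 183), without overlap, and Lox went from 3.08 to 7.27 CPM (median 4.34) to 0.161 to 3.38 CPM (median 0.91), with overlap. The batch 2 vehicle stayed out of the test. Of 20 stellate cell markers 11 fell and 0 rose, of 21 matrix partners of lysyl oxidases 11 fell and 0 rose, and of 12 endothelial markers 12 fell. With library totals as the scaling the median of all genes moved by -0.17, 6 members fell and the share of higher genes among those called went from 49.1% to 22.4%. Over all genes 845 were then higher and 2920 lower, against 1774 and 1842 with TMM. Without vehicle 9 or 3-week vehicle 4 Tgfb1 was called too (-0.55, adjusted p 0.0125, and -0.53, adjusted p 0.0373), and without 3-week vehicle 6 Des was (-0.72, adjusted p 0.0444).

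From 5 to 10 months Lox (-2.0 ± 0.58, adjusted p 0.0262), Loxl1 (-1.36 ± 0.43, adjusted p 0.04) and Des (-1.05 ± 0.27, adjusted p 0.0148) fell in vehicles, 3 of 9 members, where 14.1% of genes were called and 7.41% fell. No member rose, where 6.68% of genes did. Loxl1 went from 1.28 to 13.4 CPM to 1.57 to 2.85 CPM, and the ranges overlapped. Only Des was called without 5-month vehicle 4 or without 10-month vehicle 2, 5 or 6, with Lox at adjusted p-values of 0.105, 0.0604, 0.0506 and 0.0576. Loxl1 was also lost without 5-month vehicle 6 (0.0818) or 10-month vehicle 1 (0.0669) or 4 (0.0762). Pdgfrb was called without 5-month vehicle 9 (-0.98, adjusted p 0.0147) or 5 (-0.97, adjusted p 0.0381), and Tgfb1 without 10-month vehicle 7 (-0.67, adjusted p 0.0387). The share of higher genes among those called went from 47.4% to 62.2% with library totals as the scaling.

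In low-risk liver 0 members were called between 5 and 10 months by edgeR or DESeq2 (0% of 16084 genes in edgeR), and 2 had an unadjusted p under 0.05, where 9.66% of genes did: Des (-0.93, interval -1.54 to -0.32) and Lox (-1.16, interval -1.97 to -0.35). Between high-risk liver of 5 months and uninvolved liver of 10 months only Lox was called, lower at 10 months (-1.85 ± 0.39, adjusted p 0.00873), where 1.21% of genes were lower. Lox ran to 8.36 CPM in the first group and to 1.62 CPM in the second. Without the libraries that stood apart technically, high-risk 10 and 15 among them, Lox was not called (-1.42, adjusted p 0.0565). The difference between high-risk and low-risk liver was tested for a change with age in one fit, and 0 members were called by edgeR or DESeq2, 0 had an unadjusted p under 0.05 (12.1% of genes did) and 0.448% of 16084 genes were called. The interval of that change was -1.68 to 0.31 for Lox, -2.22 to 1.82 for Timp1 and -0.41 to 0.68 for Pdgfrb.

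Ordered by mean level over the 9 groups, each gene formed a near-continuous series in which most neighbouring groups differed by less than the larger of their SDs. For Pdgfrb the order ran from uninvolved (49.4 CPM), 5-month high-risk (42.6), tumor (38.2), 3-week TBT (32.0), 3-week vehicle (25.8), 5-month vehicle (21.4), 10-month low-risk (15.5) and 5-month low-risk (15.4) to 10-month vehicle (12.6), and no neighbouring pair was further apart than that. Loxl1, Tgfb1, Acta2, Tagln and Lrat had no such step either. Lox had a step from 5-month high-risk (4.85 CPM) to tumor (1.61) and from 5-month low-risk (0.806) to 10-month low-risk (0.356), and both 3-week groups stood at its top. Timp1 stepped from uninvolved (1.32 CPM) to 5-month vehicle (0.556), Reln from 3-week vehicle (287 CPM) to 5-month high-risk (192), and Des from 5-month vehicle (4.44 CPM) to 10-month low-risk (3.03).

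Of 27 genes of the TGF-beta pathway 22 rose and 0 fell in high-risk against low-risk liver of 5 months (median log2 fold change 0.64, against -0.01 over all genes), and 20 rose and 0 fell in uninvolved against low-risk liver of 10 months (0.78 against 0.05). Of all genes, 20.3% rose and 18.5% fell at 5 months, and 27.7% rose and 24.7% fell at 10 months. These shares stand beside the counts of each list below, which at 5 months set high-risk against low-risk liver. Against vehicles of 5 months 8.47% of all genes rose. There fewer genes of the TGF-beta, platelet-derived growth factor, protease and matrix lists were called. Ltbp1 was called there (1.17 ± 0.28, adjusted p 0.00462), while Tgfb1 and Tgfb2 (1.07 ± 0.5, adjusted p 0.14) were not. Ltbp1, which holds latent TGF-beta in the matrix, rose by 1.77 ± 0.21 at 5 months, and Tgfb2, a second ligand, by 2.19 ± 0.30 at 10 months. Of 7 genes for platelet-derived growth factors and their receptors 6 rose at each age and 0 fell (medians 1.47 and 1.56), with the alpha receptor Pdgfra from 13.7 ± 2.46 (SD, n = 16) to 52.8 ± 26.4 CPM (SD, n = 10) at 5 months. Loxl2 and Loxl3 rose beside Lox and Loxl1 at both ages, 4 of the 5 lysyl oxidases. Loxl4, with 0.63 (adjusted p 0.21) and 0.34 (adjusted p 0.52), was not called and is named after its values were seen.

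Of 18 tested inhibitors and proteases of the matrix, 14 rose at 5 months and 12 at 10 months, and 0 fell. Timp1 was joined by other inhibitors, Timp3 at both ages (1.31 ± 0.16 and 1.65 ± 0.10) and Timp2 at 10 months (1.62 ± 0.14), and by proteases such as the gelatinase Mmp2 at 5 months (2.62 ± 0.28). Among 21 matrix partners of lysyl oxidases 19 rose and 2 fell at 5 months (median 2.01), and 18 rose and 2 fell at 10 months (median 1.51). Elastin (Eln) rose by 2.95 ± 0.31 and 2.15 ± 0.18, fibrillin 1 (Fbn1) by 2.14 ± 0.19 at 5 months and the collagen chain Col5a2 by 4.22 ± 0.30 at 10 months. Those that fell were Bmp1, the procollagen C-proteinase, at both ages, the fibronectin gene Fn1 at 5 months and periostin (Postn) at 10 months, named after their values were seen.

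Resting markers went both ways, and some counts were near the shares of all genes. Of all genes, 20.3% rose and 18.5% fell at 5 months, and 27.7% rose and 24.7% fell at 10 months. Of 20 stellate cell markers, Lrat, Reln, Des and Pdgfrb among them, 9 rose and 5 fell at 5 months (median 0.25), and 7 rose and 5 fell at 10 months (median 0.14). Colec10, a collectin of stellate cells, fell from 49.7 ± 12.1 CPM (SD, n = 16) to 11.9 ± 8.72 (SD, n = 10) at 5 months and from 45.1 ± 2.86 (SD, n = 5) to 9.08 ± 3.28 (SD, n = 5) at 10 months, and Angptl6 fell at 10 months (-1.53 ± 0.14). The transcription factor gene Tcf21 rose at 5 months (1.25 ± 0.21). Of 15 tested genes of vitamin A handling 3 rose and 6 fell at 5 months and 4 rose and 4 fell at 10 months. The retinal dehydrogenase Aldh1a1 fell by 1.01 at 10 months (SE 0.15) and the plasma carrier Rbp4 by 0.78 at 5 months (SE 0.13). Under library totals as the scaling the stellate counts were 12 higher and 4 lower at 5 months and 8 and 2 at 10 months, and those of vitamin A handling 4 and 3, and 4 and 2. That scaling moved all genes upward too. At 5 months 6187 genes were then higher and 999 lower, against 3005 and 2740 with TMM. At 10 months 6828 were higher and 1839 lower, against 4520 and 4041. The reelin receptors Vldlr (1.71 ± 0.35) and Lrp8 (2.11 ± 0.73) were higher in high-risk than in low-risk liver at 5 months. At 10 months 0 of the 3 tested genes of that pathway were called. Against vehicles of 5 months Vldlr rose in high-risk liver (1.63 ± 0.51, adjusted p 0.0269). Lrp8 was not called against vehicle in high-risk liver (-1.14 ± 1.02, adjusted p 0.47) or in low-risk liver (-3.24 ± 0.96, adjusted p 0.414).

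Of 15 contractile genes 6 rose and 0 fell at each age, where 20.3% of all genes rose at 5 months and 27.7% at 10 months. Smoothelin (Smtn) rose by 1.18 ± 0.17 and 1.61 ± 0.22, tropomyosin 1 (Tpm1) by 1.06 ± 0.17 at 5 months and Synpo2 by 1.85 ± 0.26 at 10 months. The smooth muscle myosin Myh11 ran from 4.77 to 24.4 CPM (median 10.0) in high-risk and from 2.13 to 16.7 (median 6.67) in low-risk livers of 5 months and was not called at either age (0.52 and 0.41), a gene named after its values were seen. In tumors against uninvolved liver, where 7.55% of all genes rose and 10.5% fell, 1 of 27 in the TGF-beta list was lower, 0 of 7 and 0 of 5 in the platelet-derived growth factor and lysyl oxidase lists, and among 20 stellate markers 5 were lower, such as Hand2 (-1.17 ± 0.22) and Ecm1 (-0.62 ± 0.17).

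**Figure D5:**
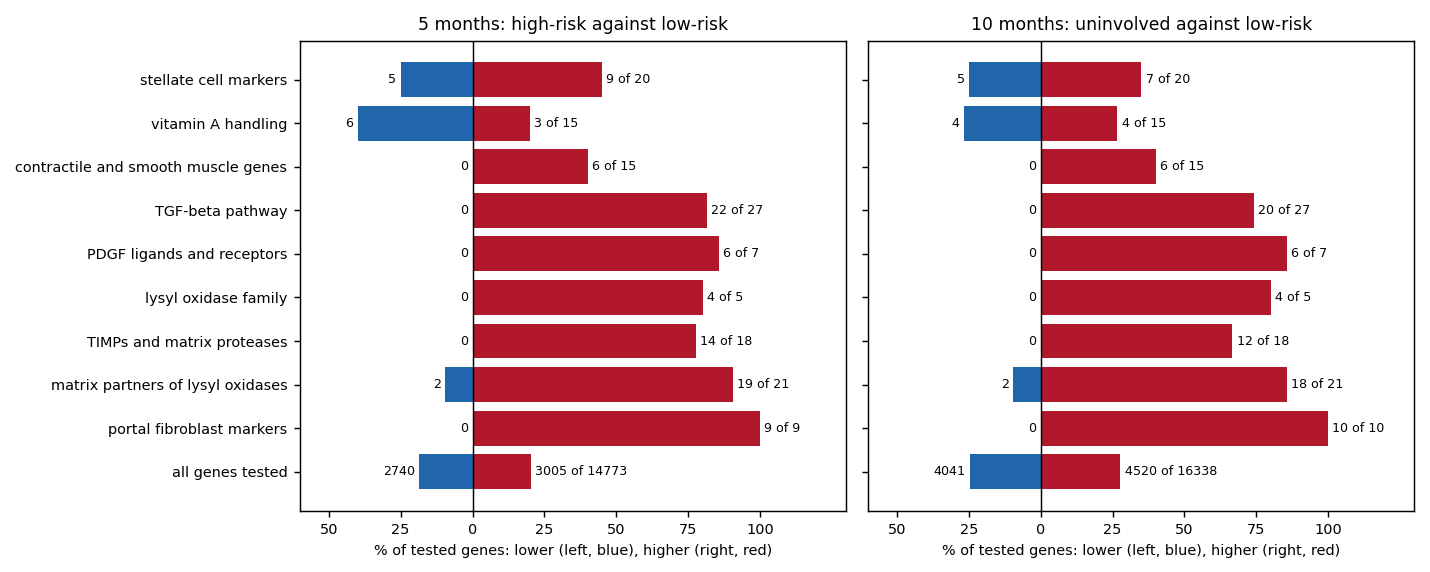
Share of tested genes of 9 lists, and of all genes, called higher (red, right) or lower (blue, left) in high-risk against low-risk liver at 5 months and in uninvolved against low-risk liver at 10 months, with the counts printed. Portal fibroblast, matrix, TGF-beta and lysyl oxidase lists lie almost wholly to the right, while stellate cell markers and vitamin A handling reach to both sides.

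Markers of other cells that could carry these genes also moved, some lists in numbers near or below the shares of all genes. Those shares were 20.3% higher and 18.5% lower at 5 months, and 27.7% higher and 24.7% lower at 10 months. Of the portal fibroblast markers 9 of 9 tested rose at 5 months and 10 of 10 at 10 months. The 12 genes summed to 68.8 to 305 CPM (median 220) in high-risk and 48.7 to 99.2 CPM (median 62.4) in low-risk livers of 5 months, and to 111 to 212 CPM (median 186), 61.9 to 107 CPM (median 72.9) and 54.6 to 89.7 CPM (median 66.0) in uninvolved, low-risk and vehicle livers of 10 months. Elastin, Mfap4, Thy1 and Fbln2 stand in both that list and the matrix list. Likewise, Spp1 stands in both the macrophage and bile duct lists, and Krt19 in both the mesothelial and bile duct lists. Bile duct markers summed to 46.2 to 371 CPM (median 306) in high-risk and 38.8 to 292 CPM (median 61.2) in low-risk livers, and to 125 to 245 CPM in uninvolved against 46.8 to 69.3 CPM in low-risk livers of 10 months. Macrophage markers summed to medians of 751 and 490 CPM in the 2 groups of 5 months and of 630 and 554 CPM in those of 10 months, with ranges that overlapped at both ages. Of mesothelial markers 3 of 9 rose at 5 months and 5 of 10 at 10 months, while the defining Msln and Upk3b stayed at or below 4.64 CPM in these groups and were not called. Of endothelial markers 2 rose and 6 fell among 12 at 5 months, and 2 rose and 5 fell at 10 months. Lymphocyte markers had 4 of 10 higher and 1 lower, then 5 of 10 higher and 0 lower, and hepatocyte markers 1 of 10 higher at each age, with 4 and 5 lower. Of the skeletal muscle markers, 2 passed the filter on low counts, Mylpf and Des. The 1 that rose at each age was Des, itself a member, and Mylpf was not called higher. Of 14 macrophage markers 8 rose and 2 fell at 5 months and 6 rose and 6 fell at 10 months, and of 9 bile duct markers 5 and then 9 rose. No marker of these lists was at 0 in all samples of 5-month high-risk liver. The part of these cells in the members' changes was not tested.

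The genes whose level was most like that of a member over the 72 samples were found by Pearson correlation of log2(CPM + 0.5) among the 13193 genes that averaged 1 CPM or more. The samples share groups, ages and sequencing batches, so the coefficients describe these libraries only. Lox was closest to Eln (r = 0.926), Loxl1 to Cd34 (0.928), Pdgfrb to Col6a3 (0.914) and Lum (0.911), and Timp1 to Rasal1 (0.876), Itgax (0.863) and Trem2 (0.855). Reln was closest to Eng (0.863), Acta2 to Myl9 (0.845), Tgfb1 to Plagl1 (0.85), Lrat to Ehd3 (0.752), Des to Cryab (0.737) and Tagln to Chst7 (0.546). No gene was the closest to more than 1 member.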

How the data were processed

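Total RNA of mouse liver was sequenced after a stranded library preparation, per the labels' protocols. The authors deposited whole-number counts per gene for 75 libraries. Trim Galore, HISAT2, featureCounts and mm10 are named, without versions, in the submitters' processing notes, and ComBat-seq batch adjustment is named by the deposited table itself. How that adjustment was set, and how it moved the 5-month counts, is not given in the sources used here.

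From these counts, genes with low counts were removed by filterByExpr, libraries were scaled by TMM, and edgeR 4.0.16 (limma 3.58.1, R 4.3.3) fitted robust quasi-likelihood models with sequencing batch as a term for the 5-month samples. Separate fits served the tumors, since they share mouse numbers with uninvolved samples. P-values were adjusted over all genes tested in each of 15 comparisons, and intervals span 2 SE. Repeat libraries of 1 sample were summed. The procedure was tested on simulated data. DESeq2 1.42.0, other scalings, filters, batches and omissions of each sample were run as alternatives.

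The 10 genes and 17 gene lists were chosen with earlier results of these data known. The lists cover stellate, contractile, TGF-beta, PDGF, lysyl oxidase, protease, vitamin A, reelin, matrix, portal fibroblast, mesothelial, skeletal muscle, endothelial, macrophage, lymphocyte, bile duct and hepatocyte genes. In each list the text names up to 2 called genes of smallest adjusted p, of which 1 in the vitamin A list is not reported here, and 3 nearest genes per member were ranked. By their titles, samples with the same mouse number in tumor and uninvolved groups come from 1 animal. The deviations of these 6 pairs correlated from -0.27 to 0.65, with 1 pair over 0.1 and 1 that matched its own number best. For the 7 pairs of 3-week TBT and vehicle samples, which share only numbers, both counts were 4, so the correlations do not establish the pairing. Other shared numbers are only numbers.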

Additional observations from a re-analysis of the deposited data

Results flagged for a closer look

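Across 80 sets of 1 gene in 1 group of 4 to 10 samples, 8 had a sample far from the others by Dixon's criterion, each on the high side. The criterion flags about 1 in 20 sets of normally distributed values, a shape that CPM need not have. Desmin (Des) stood at 23.3 CPM in 5-month high-risk mouse 1, the liver with 170 CPM of other skeletal muscle markers. Vehicle mouse 7 of 10 months was the highest of its 6 in Reln (212 CPM), Lox (0.776 CPM) and Loxl1 (2.85 CPM). Timp1 was set apart at 0.0792 CPM in 10-month vehicle 4, which is 2 counts where each other vehicle had 1. It was also set apart at 0.317 CPM (9 counts) in 10-month low-risk 2. Tagln stood at 0.881 CPM in uninvolved mouse 12, and Tgfb1 at 16.9 CPM in the sample combined from uninvolved mice 3 and 6.

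One vehicle library of 10 months is labelled as a tumor and entered no comparison. It held 11.5 M counts, 14.1% of them mitochondrial. It lay above all 6 vehicles in 7 of the 10 genes: Acta2 (8.24 CPM), Pdgfrb (34.6), Lrat (36.4), Timp1 (0.458), Lox (2.9), Loxl1 (10.7) and Tgfb1 (15.4). Des (3.2 CPM), Reln (144 CPM) and Tagln (0.305 CPM) did not lie above them. Its Pdgfrb and Loxl1 lay within the range of the 7 tumors, and its Lox, Lrat and Tgfb1 lay above every tumor.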

How the results depend on the processing

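Counts of members called kept within 1.5 times the main count in 343 alternatives and left that range in 21, and no direction of a called member reversed. The cause of the other changes was not tested, beyond the fewer samples or genes some settings hold.

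High-risk against low-risk liver of 5 months had 8 members called, with 3 in batch 1 only and 5 in batch 2 only. High-risk against vehicle had 5, with 3 without a filter on low counts, 8 with library totals only (chosen after seeing the data), 0 in batch 1 only, and 3 to 7 with single samples left out. Tumors against uninvolved liver had 0, with 1 in DESeq2 (Des), 1 with all 10-month groups in one fit, 2 with uninvolved libraries 3 and 6 as separate samples (Des and Tgfb1), and 0 to 1 with single samples left out. Tumors against low-risk liver had 8, and 4 to 8 with single samples left out. Vehicles of 10 against 5 months had 3, with 5 in DESeq2, 5 without the technically deviating libraries, 1 with the tumor-labelled vehicle library added to the vehicles, and 1 to 4 with single samples left out. Uninvolved liver of 10 months against high-risk liver of 5 months had 1, and 0 without the deviating libraries. With that library added, tumors against vehicle lost Lox (1.22, adjusted p 0.126) and Tgfb1 (0.19, adjusted p 0.634).

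With the replicate number as a block, high-risk against vehicle at 5 months had 0 members called, and uninvolved against vehicle 6, Lrat being lost (-0.48, adjusted p 0.0821). These groups share only numbers. For tumors and uninvolved liver, where the numbers in the titles pair samples, the block gave 0 members, as without it, and 0 without mice 3 and 6. Depth limits Timp1, whose ratio to vehicle rests on 7 counts in 6 vehicles of 10 months.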
